A study of Mus musculus with 6 samples.

Results

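The transcripts of 9 genes whose products restrain JAK-STAT signaling were compared between WT and Ifnar1-/- monocytes from the inflamed CNS. They were chosen by name: the suppressor of cytokine signaling (SOCS) family genes Socs1, Socs2, Socs3 and Cish, the tyrosine phosphatase genes Ptpn1, Ptpn2 and Ptpn6, and the protein inhibitor of activated STAT (PIAS) genes Pias1 and Pias4. Each was found once among the 54232 genes of the deposited tables, and all 9 were among the 11254 genes with enough reads to be tested.

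Monocytes came from mixed bone marrow (BM) chimeras, that is, irradiated GFP+ mice that had received equal numbers of WT (CD45.1) and Ifnar1-/- (CD45.2) BM cells. Ifnar1 encodes a chain of the type I IFN receptor, and the Ifnar1-/- donors lacked it in every cell. At 6 to 7 weeks after transfer, experimental autoimmune encephalomyelitis (EAE), a model of multiple sclerosis, was induced, and 30000 IU of rIFN-β was given every day. At the peak of disease, donor cells with the surface phenotype GFP-CD45+CD11b+Ly6ChiLy6G- were sorted by donor from the CNS, and 3 RNA libraries were sequenced for each genotype. All 6 libraries thus came from treated mice with EAE, and no library from untreated mice was analyzed. The CD45 allele and the receptor genotype cannot be told apart, because each went with one donor strain. There were 3 such recipient mice and 3 RNA samples of each genotype, but no label ties a library to a mouse, so libraries were compared as unpaired and p-values measure the spread between libraries, which may in part be technical.

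Type I IFNs and many cytokines signal through receptor-bound JAK kinases, which phosphorylate STAT transcription factors. SOCS proteins are made in response to STATs and act back on the receptor or its kinase, tyrosine phosphatases remove the phosphate from JAKs and STATs, and PIAS proteins, which are SUMO ligases, act on STATs in the nucleus. In monocytes these brakes set how long a response to IFNs, IL-6, IL-10 or GM-CSF lasts.

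The promoters of the feedback genes are shown because they hold the letters that STATs read. RefSeq promoter windows of GRCm38.p6, running from 250 bases before to 50 bases after the start of transcription, were available for 6 of the 9 genes (not for Socs2, Ptpn2 or Pias4). Each was searched for the STAT dimer element GAS, written TTCNNNGAA, and for the IFN-stimulated response element ISRE, taken as GAAA, any 2 letters and GAAA again, on both strands. Socs1 held the ISRE at 83 and at 77 bases before the start, overlapping by 4 letters, on the minus strand (the window shown is chr16:10785537-10785656). Socs3 held a GAS element 154 bases before the start (minus strand, chr11:117969467-117969566). Cish held a GAS pair at positions 1 and 12 of the transcript (plus strand, chr9:107296655-107296684). Stat2, a gene that differed strongly between the genotypes, is shown beside them with an ISRE read on the opposite strand 222 bases before its start (plus strand, chr10:128270248-128270347). Capitals mark the matched letters:
Socs1: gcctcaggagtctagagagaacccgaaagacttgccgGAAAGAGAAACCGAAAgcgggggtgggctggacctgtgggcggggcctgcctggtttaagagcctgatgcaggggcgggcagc
Socs3: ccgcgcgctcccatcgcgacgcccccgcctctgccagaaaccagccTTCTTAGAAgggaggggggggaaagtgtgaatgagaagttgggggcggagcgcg
Cish: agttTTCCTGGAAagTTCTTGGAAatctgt
Stat2: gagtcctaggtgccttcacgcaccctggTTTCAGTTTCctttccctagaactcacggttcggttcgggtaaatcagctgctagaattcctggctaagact
Among 32851 promoter windows of the same length, 8.30% held at least 1 GAS and 3.44% at least 1 ISRE, whereas 2 or more were found in 0.457% and 0.225%. The windows of Ptpn1, Ptpn6 and Pias1 held neither set of letters. A match describes the sequence only and does not show that a factor bound there.

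Sequencing gave 4531782 to 7321380 expected counts per WT library and 5442568 to 6916101 per Ifnar1-/- library, so that 3 counts corresponded to 0.410 to 0.662 CPM (reads of a gene scaled to library size). The 9 genes had between 47 and 5135 counts in each library. Mitochondrial ribosomal RNA took 12.3% to 17.6% of the counts in WT and 15.1% to 22.7% in Ifnar1-/- libraries. Ifnar1 RNA itself was still counted in the Ifnar1-/- libraries, at 109.9, 102 and 109 CPM against 153, 126 and 111 CPM in WT. The log2 fold change of Ifnar1 was 0.28 (edgeR adjusted p = 0.360), so gene-level counts checked the genotype labels only weakly. Summed monocyte marker levels overlapped, at 8231 to 10171 CPM in WT and 8658 to 9870 CPM in Ifnar1-/-. Of the 10 markers, 5 had log2 fold changes above 0 and 5 below. Ly6c2, which encodes one form of the Ly6C antigen used in the sort, was higher in WT (log2 fold change 1.40, edgeR adjusted p = 0.00957), whereas Ccr2, the chemokine receptor of inflammatory monocytes, was at -0.62 (edgeR adjusted p = 0.143, but called by DESeq2).

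None of the 9 genes was differentially expressed between WT and Ifnar1-/- monocytes by edgeR's quasi-likelihood test with Benjamini-Hochberg adjustment, for which the adjusted p had to be 0.05 or lower and the change 1.5-fold or more. Across all tested genes 240 (2.13%) passed, 1.67% higher and 0.462% lower in WT. DESeq2 and limma-voom likewise called 0 of the 9, and 1 of the 9, Pias4, had an unadjusted p under 0.05 in edgeR, against 17.8% of all tested genes. Pias4 (1.62-fold) and Socs1 (1.55-fold) were past 1.5-fold but did not pass on adjusted p. Log2 fold changes of 8 of the 9 lay above 0 (48.2% of all genes did), and the median of the 9 was 0.20 beside -0.014 over all genes. Libraries of the 2 genotypes did not overlap for 3 of the 9 genes. Socs3 and Pias4 were above in every WT library (11.1% of all genes) and Ptpn2 was below (12.2%), beside 23.4% of all genes without overlap in either direction. With 3 libraries against 3, the two-sided exact permutation test cannot give a p below 0.1, the value that these 3 genes had.

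How tightly the data bound each difference was read from the 95% interval of the fold change. For 5 genes, Socs2, Socs3, Ptpn2, Ptpn6 and Pias1, the interval stayed within 1.5-fold in both directions, which was the case for 30.7% of all tested genes. For Socs1, Cish, Ptpn1 and Pias4 it reached past 1.5-fold on the WT side, so a difference of that size was not excluded for them at this number of libraries. Of 86 other pathway genes tested in the same libraries, 2 were differentially expressed, both with large differences. Usp18, which encodes the brake that displaces JAK1 from the type I IFN receptor, was at 109, 69.9 and 70.3 CPM in WT and at 3.82, 4.91 and 6.07 CPM in Ifnar1-/- libraries, which gave a log2 fold change of 4.09 ± 0.25 (SE, edgeR adjusted p = 1.26e-05). Stat2, the STAT that joins IRF9 in the complex formed after type I IFN, had 189, 123 and 139 CPM in WT and 30.8, 44.1 and 35.3 CPM in Ifnar1-/- libraries, a log2 fold change of 2.04 ± 0.20 (SE, edgeR adjusted p = 0.000347). Both genes were far apart between the genotypes in every library, whereas the largest fold among the brake genes was 1.62.

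**Figure D1:**
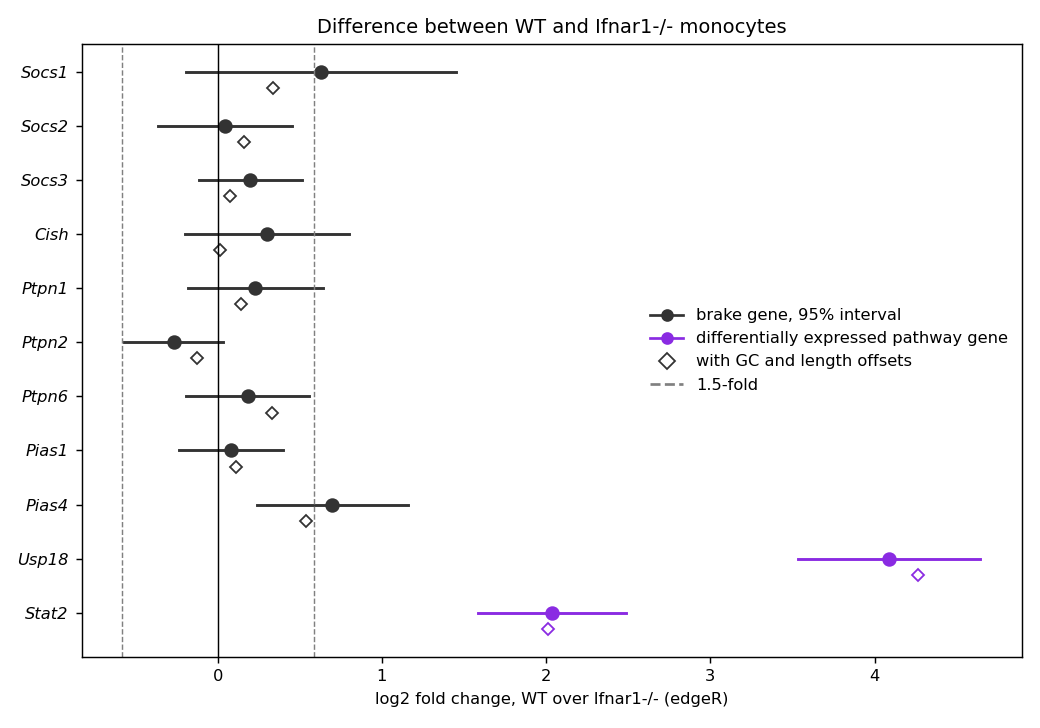
Log2 fold change of each brake gene, WT over Ifnar1-/- (x axis), with its 95% interval from edgeR, above Usp18 and Stat2. Filled circles are the fitted values, open diamonds the values after offsets for GC content and length, and dashed lines mark 1.5-fold. The 9 brake genes lie between -0.27 and 0.70, against 2.04 for Stat2 and 4.09 for Usp18.

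Socs1 encodes the SOCS protein that binds JAKs directly and blocks their kinase activity, mainly downstream of IFNs. In CPM, Socs1 (ENSMUSG00000038037.5, chr16:10782240-10785536, minus strand) was at 26.9, 65.5 and 30.2 in WT libraries 1, 2 and 3 and at 19.7, 40.2 and 18.8 in Ifnar1-/- libraries 1, 2 and 3. Library 2 was the highest in both genotypes, and the second Ifnar1-/- library exceeded 2 of the 3 WT libraries, so the groups overlapped. Means were 40.9 ± 21.4 CPM in WT and 26.2 ± 12.1 CPM in Ifnar1-/- (SD, n = 3 each), and the log2 fold change of 0.63 ± 0.37 (SE) had an interval of -0.19 to 1.45 (edgeR adjusted p = 0.407). Its spread within the genotypes, an SD of 0.648 on the log2 scale, was greater than that of 95.4% of tested genes. Leaving out WT library 2 gave a log2 fold change of 0.13, and leaving out Ifnar1-/- library 2 gave 1.09. Without the filter on low counts, Socs1 passed both thresholds at nearly the same log2 fold change, 0.62 (edgeR adjusted p = 0.0203).

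The profile of Socs1 over the 6 libraries was set beside that of every tested gene, as a choice made after its values were seen. Likeness was the root-mean-square difference of the log2 levels after each gene's mean was removed. The closest gene was Zfp455 (0.107), followed by Irgm2 (0.167), Prr5l (0.179), Tgtp1 (0.213) and Gm37320 (0.231). Irgm2 had 39.8, 75.7 and 35.9 CPM in WT and 30.4, 47.6 and 26.8 CPM in Ifnar1-/- libraries, with library 2 the highest in both genotypes. Tgtp1 has a near-identical neighboring copy, so its counts are uncertain. Zfp455 (1.10 to 4.89 CPM) and Gm37320 (0.919 to 4.68 CPM) were at low levels. None of these 5 genes was differentially expressed (edgeR adjusted p from 0.296 to 0.642). Because they were chosen for profiles like that of Socs1, which was not called, neither this nor the shared library 2 peak is separate evidence. Why Socs1 itself was highest in library 2 of both genotypes was not tested.

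**Figure D2:**
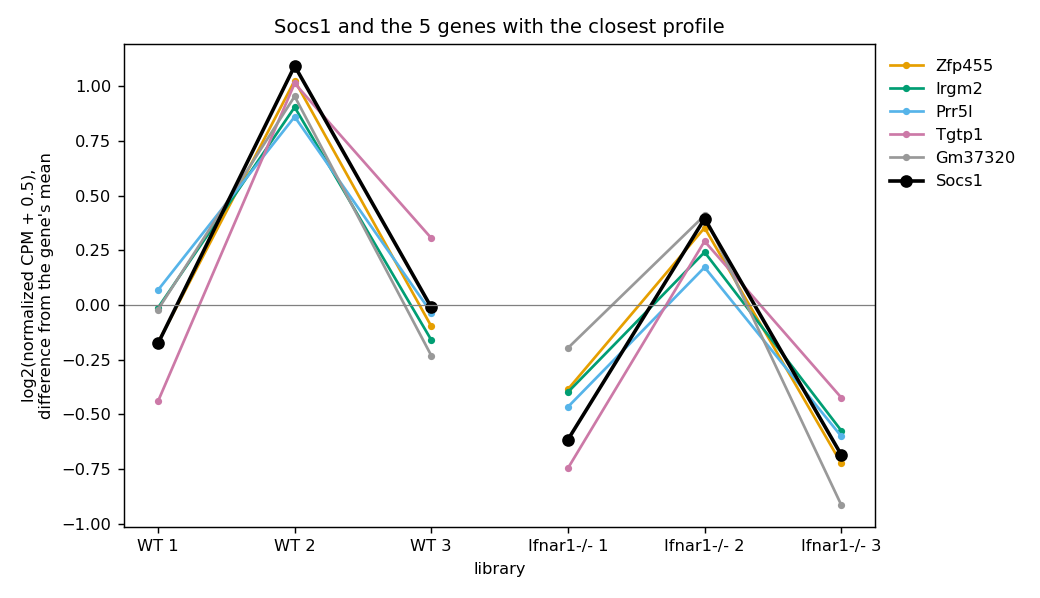
Log2 of normalized CPM plus 0.5, minus the mean of each gene, in each library (x axis) for Socs1 (black) and the 5 genes nearest to it. Lines join libraries of one genotype only to guide the eye. All 6 genes peak in library 2 of each genotype, Socs1 at 65.5 CPM in WT and 40.2 CPM in Ifnar1-/-. The 5 genes were chosen by likeness to Socs1, so a shared peak follows from the choice.

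Socs3 encodes the feedback inhibitor of receptors that contain gp130 and of the G-CSF receptor. It was the most abundant of the SOCS genes, with 560.5, 542 and 494 CPM in WT and 473, 441 and 475 CPM in Ifnar1-/- libraries (ENSMUSG00000053113.3, chr11:117966079-117970047, minus strand). Every WT library lay above every Ifnar1-/- library, by a narrow margin of the lowest WT over the highest Ifnar1-/- value. Means of 532 ± 34.4 and 463 ± 19.0 CPM (SD, n = 3 each) gave a log2 fold change of 0.20 ± 0.14 (SE, interval -0.11 to 0.51, edgeR adjusted p = 0.499). Socs3 was also among the steadiest genes within a genotype, since 2.88% of tested genes had a smaller SD than its 0.079 on the log2 scale.

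Cish encodes CIS, which occupies the STAT5 docking sites of receptors such as that of GM-CSF. In WT it had 48.1, 58.7 and 35.5 CPM and in Ifnar1-/- 44.1, 43.9 and 27.4 CPM (ENSMUSG00000032578.7, chr9:107296026-107302784, plus strand), so that library 3 was the lowest in both genotypes and the groups overlapped. The log2 fold change was 0.30 ± 0.23 (SE, interval -0.20 to 0.80, edgeR adjusted p = 0.529). Summed neutrophil markers were highest in the same library 3 of both genotypes, at 1398 CPM in WT and 1298 CPM in Ifnar1-/-, against 264 to 523 CPM in the other libraries. Ngp (677 and 603 CPM), Ltf (303 and 229 CPM) and Camp (176 and 155 CPM) led these library 3 sums in WT and Ifnar1-/-. Not every marker followed: Mmp8 was highest in library 2 of both genotypes, at 173 and 212 CPM, and Ly6g had at most 4 counts in any library. The part of the neutrophil marker difference in the Cish values was not tested.

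Socs2, best known as the brake on growth hormone signaling, had 29.0, 20.2 and 20.5 CPM in WT and 24.1, 22.0 and 21.9 CPM in Ifnar1-/- libraries (ENSMUSG00000020027.18, chr10:95385362-95417180, minus strand). The first WT library was the highest and the other WT libraries were the lowest of all 6. Means were nearly equal, 23.3 ± 5.01 and 22.7 ± 1.26 CPM (SD, n = 3 each), with a log2 fold change of 0.04 ± 0.18 (SE, interval -0.37 to 0.45, edgeR adjusted p = 0.936). Without WT library 1 the log2 fold change was -0.15, on the other side of 0.

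**Figure D3:**
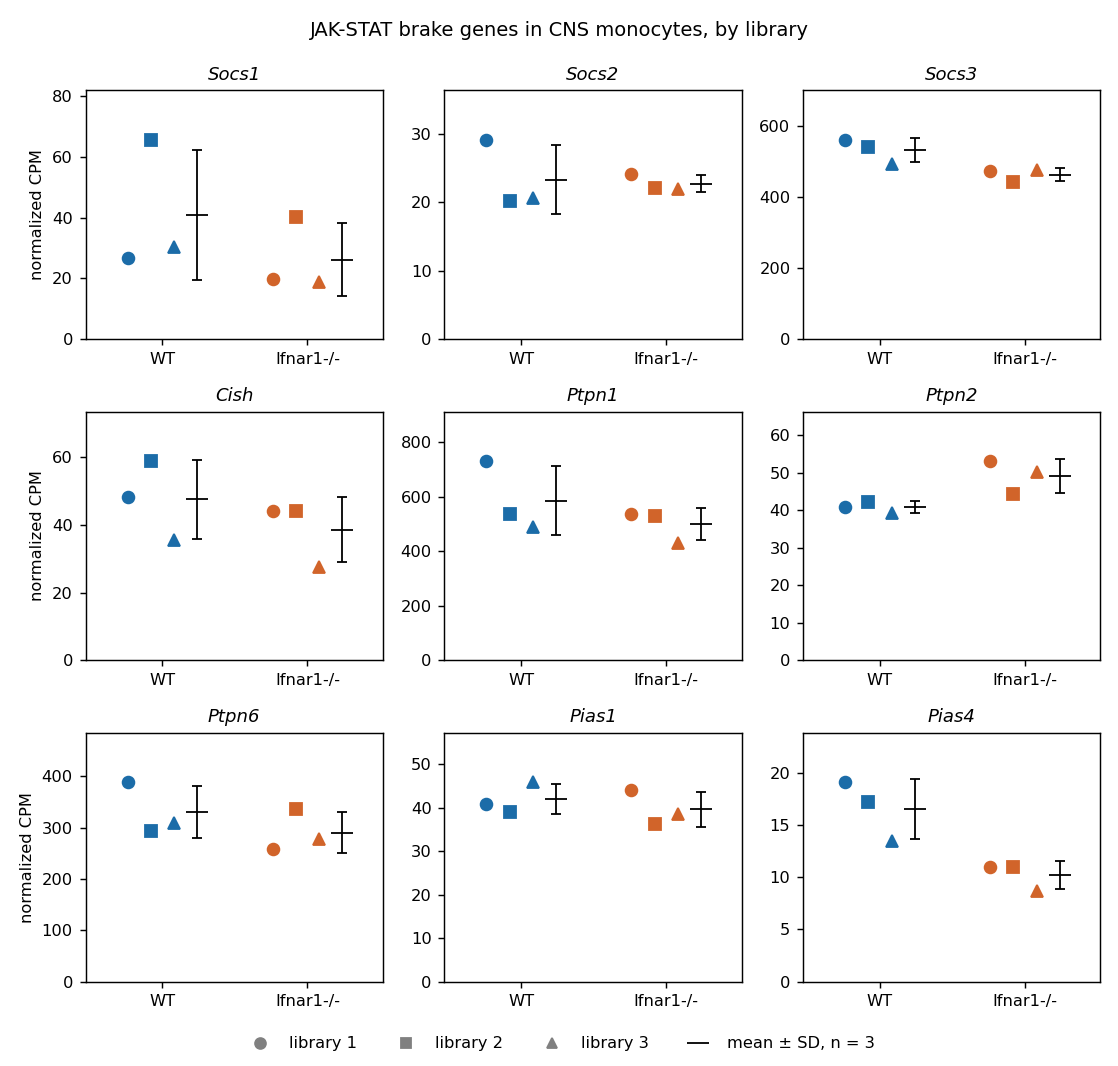
Normalized CPM (y axis, from 0) of the 9 brake genes in the 3 WT and 3 Ifnar1-/- libraries, with circles, squares and triangles for libraries 1, 2 and 3 and bars for the mean ± SD. Only Socs3, Ptpn2 and Pias4 show no overlap between genotypes, and Socs1 is highest in library 2 of each.

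Of the phosphatases, Ptpn2 was the only one, and the only one of the 9 genes, with a log2 fold change below 0. It encodes TC-PTP, which removes phosphate from JAK1 and JAK3. Its levels were 40.8, 42.3 and 39.3 CPM in WT and 53.0, 44.2 and 50.2 CPM in Ifnar1-/- libraries (ENSMUSG00000024539.17, chr18:67665511-67724595, minus strand). All WT libraries lay below all Ifnar1-/- libraries, with means of 40.8 ± 1.5 and 49.1 ± 4.48 CPM (SD, n = 3 each). The log2 fold change of -0.27 ± 0.14 (SE, interval -0.57 to 0.03) did not pass the test (edgeR adjusted p = 0.328). With any 1 library left out, it stayed between -0.32 and -0.19.

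Ptpn1 encodes PTP1B, a phosphatase held at the endoplasmic reticulum that acts on JAK2 and TYK2. Its WT libraries had 731, 538 and 491 CPM and its Ifnar1-/- libraries 537, 530.0 and 433 CPM (ENSMUSG00000027540.13, chr2:167932057-167979385, plus strand). Only the first WT library stood above the rest, and the other values interleaved. The log2 fold change was 0.23 ± 0.19 (SE, interval -0.18 to 0.64, edgeR adjusted p = 0.560), and it was 0.05 at the lowest with 1 library left out.

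Ptpn6 encodes SHP-1, the phosphatase that inhibitory receptors of myeloid cells recruit through phosphorylated ITIM motifs. It had 388, 293 and 309 CPM in WT and 258, 336 and 278 CPM in Ifnar1-/- libraries (ENSMUSG00000004266.15, chr6:124720707-124738714, minus strand). The genotypes overlapped, the second Ifnar1-/- library lying above 2 WT libraries. Means were 330.1 ± 51.1 and 291 ± 40.3 CPM (SD, n = 3 each) and the log2 fold change was 0.18 ± 0.17 (SE, interval -0.19 to 0.56, edgeR adjusted p = 0.609). An antisense gene, Gm20531, lies across part of Ptpn6 but had at most 3 counts in any library.

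Reads of Ptpn6 differed between genotypes in another measure, the effective length that RSEM assigns from the mix of isoforms. It was 1681, 1716 and 1490 bases in WT and 1408, 1433 and 1413 bases in Ifnar1-/- libraries. All WT values were thus above all Ifnar1-/- values, by 211 bases or 14.9% on average, in a two-sided exact permutation test with p = 0.1, the smallest that it can give (0.3 after adjustment over the 9 genes). Such separation was common, since 33.3% of all tested genes had no overlap in effective length, and 15.0% of tested genes had a larger percent difference in either direction. The lengths of Socs1 and Socs3 also did not overlap, but differed by only 1.00% and 0.861% of the Ifnar1-/- mean, both shorter in WT. In the deposited length column, which leaves out the correction for fragment size, Ptpn6 was 233 bases longer in WT, Socs1 was 4.05 bases shorter and Socs3 was 1.85 bases longer.

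Pias4 had the largest fold change of the 9 genes and the smallest p. Its product, also called PIASy, is a SUMO ligase. It was the least abundant of them, with 19.1, 17.2 and 13.4 CPM in WT and 11.0, 11.0 and 8.64 CPM in Ifnar1-/- libraries, resting on 68 to 134 and on 47 to 72 counts (ENSMUSG00000004934.14, chr10:81153266-81167923, minus strand). The lowest WT library was above the highest Ifnar1-/- library. Means of 16.6 ± 2.88 and 10.2 ± 1.36 CPM (SD, n = 3 each) gave a fold of 1.62 and a log2 fold change of 0.70 ± 0.21 (SE, interval 0.24 to 1.16). The unadjusted p of 0.0069 became an edgeR adjusted p of 0.126 over all tested genes, so Pias4 was not called. With 1 library left out the log2 fold change lay between 0.59 and 0.85. The 5 genes with the profile nearest to that of Pias4, by the same measure as for Socs1, were D17Wsu92e (0.0765), Shisa5 (0.0859), Abtb2 (0.0890), Tagap (0.101) and Mad2l1bp (0.107). None of these 5 was called (edgeR adjusted p from 0.0663 to 0.265). As they were chosen by likeness to a gene not called, this is not separate evidence.

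Pias1, which encodes another SUMO ligase of this family, had 40.8, 39.1 and 45.8 CPM in WT and 44.0, 36.3 and 38.6 CPM in Ifnar1-/- libraries (ENSMUSG00000032405.10, chr9:62878368-62987924, minus strand). The values interleaved, with a log2 fold change of 0.08 ± 0.14 (SE, interval -0.24 to 0.40, edgeR adjusted p = 0.816). Unlike for Pias4, the interval left no room for a 1.5-fold difference in either direction. The difference between the 2 genes' fold changes was not tested.

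Levels were compared between genes per length, as the deposited length-scaled TPM values. Ptpn1 was first, Ptpn2 next after the leading 3 genes, and Pias4 last in each of the 6 libraries. Mean TPM over all libraries was 511 for Ptpn1 (range 392 to 559), 193 for Socs3 (168 to 236), 186 for Ptpn6 (160 to 236) and 27.7 for Ptpn2 (19.7 to 31.1). Below them lay Cish at 15.3 TPM, Socs2 at 15.1, Pias1 at 14.9, Socs1 at 12.2 and Pias4 at 6.10. The ranges of neighbors were separate for Ptpn1 over Socs3, Ptpn6 over Ptpn2 and Ptpn2 over Cish, and overlapped for every other pair of neighbors in this order. Socs3 was above Ptpn6 in 5 of 6 libraries, and Cish, Socs2 and Pias1 changed places from library to library. Together Ptpn1, Socs3 and Ptpn6 made up 89.4% to 92.2% of the summed TPM of the 9 genes.

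The lead of Ptpn1 over Socs3 rested mainly on length, for the TPM of Ptpn1 was 2.24 to 3.19 times that of Socs3 while their CPM values were nearer. In CPM, Socs3 was even above Ptpn1 in WT library 2 (542 and 538), WT library 3 (494 and 491) and Ifnar1-/- library 3 (475 and 433). The effective length of Ptpn1 was 921 to 1001 bases and that of Socs3 2340 to 2379 bases. RSEM estimates these lengths from the mix of isoforms, and whether the estimate holds for Ptpn1 was not tested. The lead of Ptpn1 in TPM depends on that estimate. TPM was not used between genotypes, because the small RNA gene Rn7s2 took 27.8% of all TPM in WT library 1 and 7.36% to 11.2% in the others. Socs1 ranged from 6.24 to 25.8 TPM and moved from the eighth place in 4 libraries to the fifth and sixth in WT and Ifnar1-/- library 2.

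**Figure D4:**
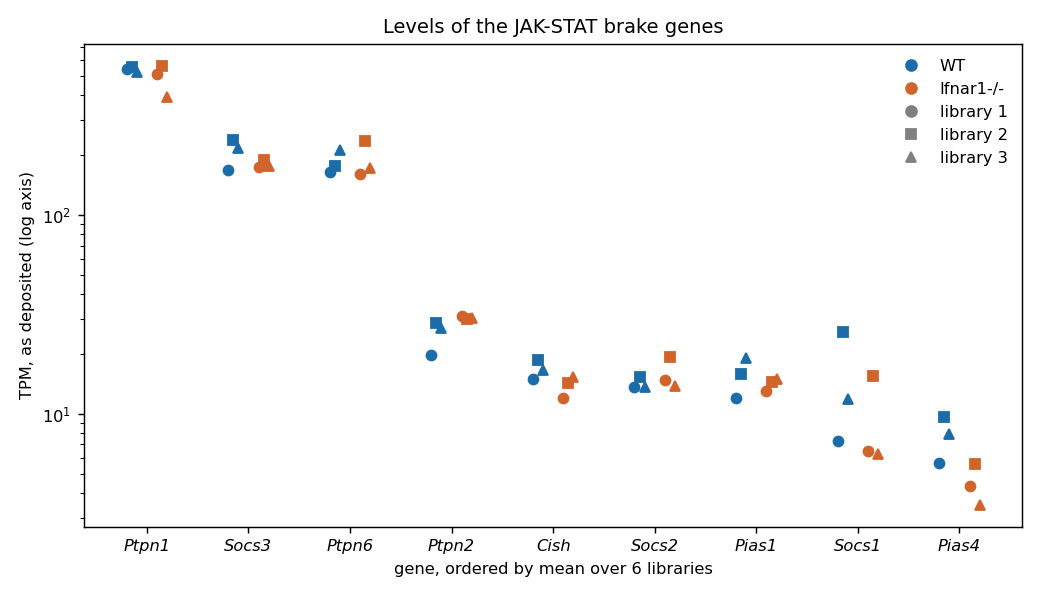
Deposited TPM (log axis) of the 9 brake genes in each library, ordered by the mean over the 6 libraries, with blue for WT, orange for Ifnar1-/- and one symbol for each library number. Ptpn1 leads at 392 to 559 TPM, and Pias4 is last at 3.48 to 9.64 TPM.

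Genes that work with these brakes were described from 9 lists of 96 genes, 86 of which were tested. By edgeR, Usp18 and Stat2 were higher in WT, 0 were lower and 84 were not called, and limma-voom called the same 2 genes. These 2 of 86 stand beside 2.13% called over all tested genes, 1.67% of them higher and 0.462% lower in WT, so the share was near that of all genes. The other 6 SOCS and PIAS family genes resembled the 9, with 0 called, a median of 0.06 on the log2 scale and the smallest p for Socs7 (0.40, edgeR adjusted p = 0.270). Of the 7 other brakes on the pathway, which include the phosphatases Ptpn11 and Ptprc, only Usp18 was called, and the median log2 fold change was 0.17.

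Through the SOCS box, SOCS proteins join a ubiquitin ligase of Elob, Eloc, Cul5 and Rnf7. All 4 subunit genes had log2 fold changes below 0 (median -0.42), whereas 48.2% of all tested genes lay above 0. Of the 4, 0 were called, the smallest p being that of Rnf7 at -0.55 (edgeR adjusted p = 0.176). With offsets for GC content and length the median was -0.14 and Rnf7 was at -0.17. PIAS proteins need the SUMO machinery, of which 10 of 12 genes had log2 fold changes below 0 (median -0.12), again with 0 called. Uba2, a subunit of the SUMO-activating enzyme, had the smallest p of these (-0.34, edgeR adjusted p = 0.263). With the same offsets 7 of the 12 lay below 0 and Uba2 was at -0.14.

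Among the targets of the brakes, 11 of 12 JAK, STAT and Irf9 transcripts had log2 fold changes above 0 (median 0.30), beside 48.2% of all tested genes. With the offsets 9 of the 12 did, and the median was 0.14. Only Stat2 was called. Irf9, whose product is a partner of STAT2, had 0.50 (edgeR adjusted p = 0.0842). Of 17 receptor genes that signal through JAKs, 14 were tested and 0 called by edgeR. Csf3r, the receptor restrained by SOCS3, was at 0.82 (edgeR adjusted p = 0.0895), and DESeq2 called it (adjusted p = 0.0147). Of 13 ligand genes, 7 were tested and 0 called by edgeR. Il15 had the smallest p of these (1.93, edgeR adjusted p = 0.0741), and with offsets for GC content and length it was called (2.23, edgeR adjusted p = 0.0409), while Csf3 was at 0 in all libraries and Ifnb1, Csf2 and Il12b were at 3 counts or fewer in each.

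On the output side, 0 of 14 tested STAT5 and STAT3 target genes were called by edgeR, the median being 0.29 on the log2 scale and 0.048 with those offsets. Bcl3 had the smallest p (0.76, edgeR adjusted p = 0.0841), and it was called by DESeq2 (adjusted p = 0.0289) and without Ifnar1-/- library 2 (edgeR adjusted p = 0.0399). The 10 genes for receptors that dock SHP-1 had a median of -0.05 (0.059 with the offsets) with 0 called, and Siglece had the smallest p (-0.37, edgeR adjusted p = 0.221).

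Markers of other cells and base composition moved with the comparison in part. Summed T cell markers were 97.8 to 132 CPM in WT and 48.7 to 59.1 CPM in Ifnar1-/- libraries. Most of each sum was Il7r alone, at 53.5 to 83.1 CPM in WT and 34.2 to 47.6 CPM in Ifnar1-/- libraries. Each other T cell marker was at 13.4 CPM or lower in every library. All 9 tested of 10 T cell markers had log2 fold changes above 0 (48.2% of all tested genes did). In 7 of them every WT library was above (11.1% of all tested genes). By edgeR none was called, with the smallest p for Il7r (0.84, edgeR adjusted p = 0.0610), which was called without WT library 3 (edgeR adjusted p = 0.0265). DESeq2 called 4 T cell markers, Bcl11b, Cd3e, Cd3g and Il7r. Summed NK cell markers were at 3.40 to 13.0 and 1.02 to 3.36 CPM, B cell markers at 1.49 to 1.71 and 0.305 to 1.10 CPM with Pax5 at 0, and dendritic cell markers at 18.8 to 27.4 and 12.7 to 22.0 CPM in WT and Ifnar1-/- libraries. Microglia markers (33.0 to 43.3 and 41.9 to 44.5 CPM) and neural markers (44.6 to 61.2 and 44.1 to 50.8 CPM, with Mog at 0) overlapped between the genotypes. The part of these cells in the values of the 9 genes was not tested, and in bulk RNA fewer cells that express a gene and less of its RNA per cell cannot be told apart.

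Across 11242 genes, which are not independent replicates, the fold change went with GC content (Spearman's rho 0.370) and with transcript length (0.148). Socs3 and Socs1 were rich in GC (62.9% and 58.6%) and Ptpn2 was poor in it (42.3%). After offsets for GC content and length, the log2 fold change was 0.34 for Socs1, 0.08 for Socs3, 0.01 for Cish, 0.14 for Ptpn1, -0.13 for Ptpn2 and 0.54 for Pias4, all nearer to 0 than before. It was farther from 0 for Socs2, Ptpn6 and Pias1, at 0.16, 0.33 and 0.11, and 0 of the 9 genes were called.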

How the data were processed

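RNA from sorted CNS monocytes, 3 WT and 3 Ifnar1-/- libraries grouped by their labels, was sequenced by the authors. The submitters' processing notes name STAR 2.6.0c, RSEM 1.2.31 and GRCm38, and the strand setting is not given in the sources used here. The kit named in the labels is not the one named in the methods. The authors deposited expected counts (estimated by RSEM, not normalized) for 54232 genes. The deposited TPM values, scaled by the authors to length and library total, were used for levels between genes, and the deposited FPKM values, scaled likewise, only as an alternative for their order. Effective length was taken from the same deposited tables.

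Expected counts were rounded. Gene names came from GENCODE M21, which matched 54165 IDs and not 67. Genes were filtered with filterByExpr (minimum count 10), scaled by TMM and tested with edgeR 4.0.16 (R 4.3.3), with no covariates. CPM values are TMM-normalized. Single genes were also tested by two-sided exact permutation of log2(CPM + 0.5), and intervals are 95%. DESeq2 1.42.0, limma 3.58.1, other filters and scalings, a replicate block, GC and length offsets (splines with 5 df) and leaving out each library were alternatives. The test script was tested on simulated data, where it recovered 90.7% of 4-fold and 60.8% of 2-fold changes. Of its calls there, 8.70% were of unchanged genes, and 0 calls were made when no gene was changed. Changes of 1.5-fold were not simulated. Total counts of 4531782 to 7321380 limit precision for genes of low counts. No 2 libraries held identical counts.

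Members and lists were chosen with earlier results of these data known. Named genes were the 9 members, the called genes of each other list (at most 4) or otherwise its gene of smallest p, and the 5 genes of most similar profile to the member of smallest p. Of the marker lists, the genes given by this rule were named only for monocytes and T cells. Genes named outside this rule (Socs1's neighbors, Ifnar1, Irf9, Ccr2, Il2ra, Timp1, Rn7s2, T cell markers, the neutrophil markers Ngp, Ltf, Camp and Mmp8, and genes listed at or near 0) were chosen after their values were seen.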

Additional observations from a re-analysis of the deposited data

How the results depend on the processing

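The 9 genes' fold changes kept their direction and their call in 142 of 144 alternatives, although Socs1 was at or past 1.5-fold in only 11 of its 16 and Pias4 in 14 of 16. The exceptions were Socs1 without the filter on low counts (0.62, past both thresholds, the 1 member called there) and Socs2, at -0.15 to 0.15 with 1 library left out. The 16 alternatives of each gene included the adjusted p alone, which reused the main fit, so agreement there was fixed beforehand. The count of differentially expressed genes, 240, was 469 with DESeq2, 872 without the filter and 119 to 245 with 1 library left out (148 without WT replicate 3, 119 without Ifnar1-/- replicate 1, 120 without Ifnar1-/- replicate 3), while members called stayed at 0 in all of these but the unfiltered fit. Of the pathway lists, 2 genes were called (Usp18, Stat2), 4 with DESeq2 (also Csf3r, Bcl3), 7 without the filter (also Csf3r, Bcl3, Il15, Il2ra, Timp1), 4 with GC and length offsets plus a replicate block (also Il15, Timp1), and 2 to 3 with 1 library left out. Without the filter 7 T cell markers were called. The cause of these shifts was not tested. With 1 library left out, ranks by TPM ran from 5 to 7 for Socs2, Cish and Pias1 and from 2 to 3 for Socs3 and Ptpn6. Effective length differences, settings chosen after seeing the data, were 1.85 bases for Socs3 with the length column, -575 to 237 bases for Cish and -263 to 72.9 bases for Pias1. Same-numbered libraries deviated together weakly (correlations 0.0974, 0.0213 and 0.232), and 5 of 6 correlated best with their own number. Pairing was left out of the main fit because no label ties a library to a mouse, and whether same-numbered libraries shared a mouse is not known. With a replicate block, 220 genes, 0 members and 1 further listed gene (Timp1) were called, and Socs1 was at 0.62 (edgeR adjusted p = 0.0929). Pias4 had the fewest counts, 47 to 134.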

Other observations

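Cish had the most variable effective length of the 9 genes, at 2293, 3221 and 2188 bases in WT and 3195, 3090 and 1571 bases in Ifnar1-/- libraries, with overlapping genotypes. The antisense gene Gm17041 and the pseudogene Gm17040, which overlap Cish, had at most 1 count in any library. When TPM was rescaled to protein-coding genes alone, a choice made after seeing the data, Socs3 was at 484, 459 and 435 in WT and 401, 365 and 403 in Ifnar1-/- libraries, and Pias4 at 16.3, 18.7 and 15.8 against 9.97, 10.9 and 8.01. Ptpn2 was at 56.5, 55.6 and 54.1 against 72.0, 58.2 and 69.3. For these 3 genes every WT library again lay on one side of every Ifnar1-/- library, and the other 6 genes overlapped.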
